A study of Mus musculus with 9 samples.

Results

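The 6 colon libraries of a series of 9 were compared here after being grouped by their own level of Lgr5, with 3 that expressed the gene and 3 that had little of it. Lgr5 is a receptor for R-spondins, ligands that strengthen Wnt signalling, and it marks the dividing stem cells at the base of intestinal crypts. All 9 libraries hold polyadenylated RNA of mice that carry Lgr5-2A-eGFP, an allele from which Lgr5 and a green fluorescent protein (GFP) are made together, at an age of 8 weeks. Crypts had been freed from the gut wall with a chelator, split into single cells with the enzyme TrypLE and sorted on GFP, with at least 30000 cells for each colon fraction and 50000 for the small intestine. Per the labels, 3 libraries are GFP-high cells of the colon, 3 are GFP-negative cells of the colon and 3 are from the small intestine, and their cell type is given as epithelial. No other treatment, strain background or epithelial surface marker is given there, nor is it stated that each library is a different animal, so any p-value below measures only the spread between these samples.

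A colon library was counted as Lgr5-expressing where Lgr5 reached at least 20 CPM (counts scaled to a common library total, on library sizes scaled with the deposited TMM factors, which correct for RNA composition) and as Lgr5-low where it stayed under 10 CPM. The Lgr5-expressing libraries were GFP-high replicates 1 and 3 and the library labelled GFP-negative replicate 2. The Lgr5-low libraries were GFP-negative replicates 1 and 3 and the library labelled GFP-high replicate 2. The measured Lgr5 level thus goes against the label in both libraries numbered 2, and every contrast of the 3 against the 3 depends on them being placed by Lgr5. Since Lgr5 chose the groups in these same libraries, all differences between them are given as a description with no test, and Lgr5 is left out of every count. The closest libraries to the thresholds had 43.5 CPM of Lgr5 (GFP-high replicate 1) and 6.28 CPM (GFP-negative replicate 3).

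Stem cells at the crypt base divide under Wnt signals from below, which hold up a set of target genes that includes several brakes on the pathway itself. Their daughters are steered by Notch toward the absorptive fate, or, where Notch is low, toward goblet, enteroendocrine and tuft cells. Bone morphogenetic protein (BMP) signals grow stronger toward the gut surface, where colonocytes mature.

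In all that follows, values of the Lgr5-expressing libraries are given in the order GFP-high replicate 1, GFP-high replicate 3 and the library labelled GFP-negative replicate 2. Those of the Lgr5-low libraries are in the order of the library labelled GFP-high replicate 2, GFP-negative replicate 1 and GFP-negative replicate 3. A log2 difference is the mean log2 CPM (prior count 2) of the Lgr5-expressing minus that of the Lgr5-low libraries. A gene is called separated where all 3 libraries on one side lie above all 3 on the other and the log2 difference is at least 1 in size, which is 2-fold. It lies wholly higher or wholly lower where the first of these holds, whatever the size, and otherwise the sides overlap. Levels are CPM and are compared between libraries, not between genes. GFP-high and GFP-negative replicates 1 share a tag in their library names, as do both libraries numbered 2. GFP-high replicate 3 and GFP-negative replicate 3 have different tags, and the labels do not say what a tag stands for.

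The colon libraries held 86621513 to 106193616 counts, at which 3 counts make 0.0279 to 0.0389 CPM. Between 20715 and 28206 genes had at least 1 count, and 0.678% to 1.21% of counts fell on mitochondrial genes. The deposited TMM factors were 1.15, 1.15 and 0.995 in the Lgr5-expressing and 0.865, 0.891 and 0.976 in the Lgr5-low libraries, so the scaling itself differed between the sides without overlap. As a check of the tissue label, Car1, a carbonic anhydrase of the colon, had 466 CPM or more in all 6 colon libraries and 16.2 CPM or less in the 3 of the small intestine. Epcam, an adhesion molecule of epithelium, had 3066, 4189 and 4624 CPM in the Lgr5-expressing and 5102, 5617 and 3017 CPM in the Lgr5-low libraries. Across the genes tested, Spearman's rho between pairs of libraries was 0.945 to 0.975 within the Lgr5-expressing side, 0.924 to 0.973 within the Lgr5-low side and 0.851 to 0.952 between the sides.

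Transcripts of immune cells were scarce in the Lgr5-expressing libraries and present in every Lgr5-low library. The 19 immune cell genes summed to 3.19, 22.3 and 68.1 CPM in the former and 420.0, 820.2 and 3415 CPM in the latter. In the Lgr5-expressing library labelled GFP-negative replicate 2, C1qa alone gave 63.5 of the 68.1 CPM. Of the 19 genes, 16 were separated and lower in the Lgr5-expressing libraries, where 7.45% of all 20609 genes tested beside Lgr5 were. In GFP-high replicate 1, 10 of the 19 genes had no count, against 2 and 5 in the other Lgr5-expressing libraries and 0 in each Lgr5-low library. The T cell gene Cd3g had 0, 0.112 and 0.140 CPM and then 27.8, 10.8 and 261 CPM. The sum of GFP-negative replicate 3 was the highest of all. What part immune cells had in the gene groups below was not tested.

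Lgr5 itself (ENSMUSG00000020140.16, chr10:115450311-115587780 (minus strand) in GENCODE M21 on GRCm38, as are all gene positions here) stood at 43.5, 72.98 and 62.1 CPM in the Lgr5-expressing and at 0.958, 2.84 and 6.28 CPM in the Lgr5-low libraries. These values rest on 4553, 7841 and 6229 counts and on 88, 219 and 586 counts. The library labelled GFP-high replicate 2 had the lowest level of the 6. In bulk samples such as these, fewer cells of a type and less RNA per cell cannot be told apart.

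The genes best known beside Lgr5 for crypt base stem cells separated with it. Smoc2 (ENSMUSG00000023886.11, chr17:14279506-14404790 (plus strand)), a secreted protein of the extracellular matrix, had 302, 435 and 420.1 CPM in the Lgr5-expressing and 32.2, 54.8 and 28.3 CPM in the Lgr5-low libraries. Its lowest Lgr5-expressing library stood 5.51-fold above its highest Lgr5-low library (prior count 2), and its log2 difference was 3.37. Ascl2 (ENSMUSG00000009248.7, chr7:142966829-142969264 (minus strand)), the transcription factor that holds cells in the stem cell state, had 200.5, 97.7 and 145 CPM and 19.7, 26.9 and 15.2 CPM. The library labelled GFP-negative replicate 2 lay between both GFP-high libraries of the same side, and the log2 difference was 2.82. Rgcc, a regulator of the cell cycle, had 289.7, 137 and 237 CPM and 29.7, 40.1 and 33.2 CPM, a log2 difference of 2.63. Within the pairs numbered 1 and 2, each of which shares a name tag, the log2 difference of Smoc2 was 2.46 and 3.70, and that of Ascl2 was 2.90 and 2.88. For these genes the sides lay far apart and the library numbered 2 on each side was within or close to the range of the other 2.

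**Figure D1:**
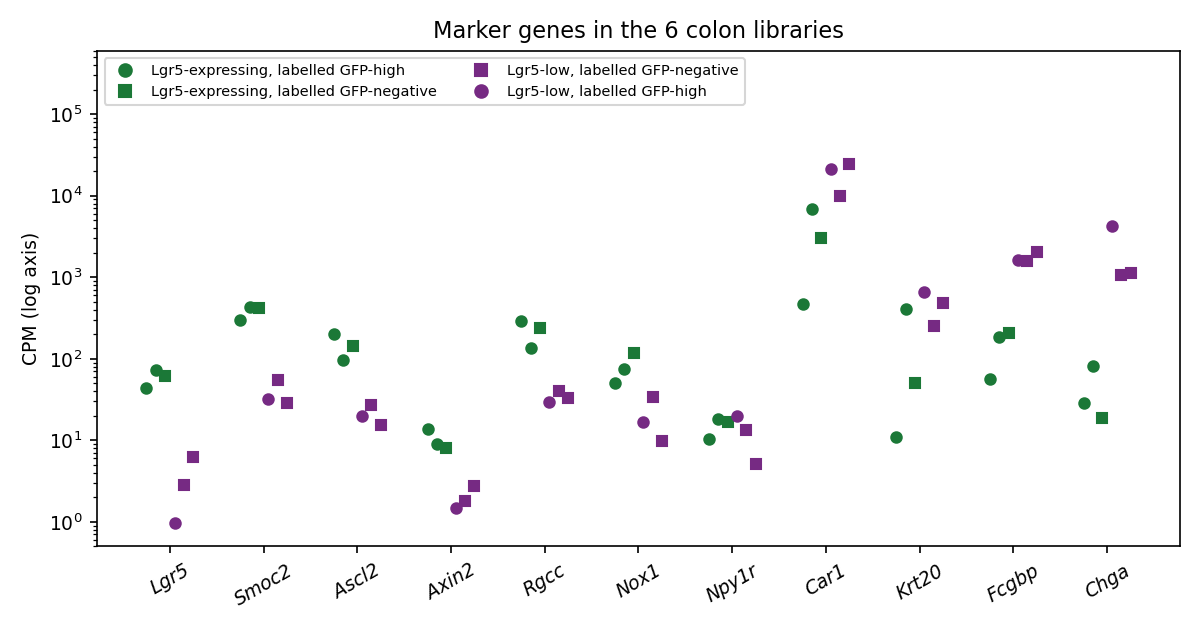
CPM (log axis) of 11 genes in the 6 colon libraries, 1 point per library; green points are Lgr5-expressing and purple points Lgr5-low libraries, circles are labelled GFP-high and squares GFP-negative. The green square and the purple circle are the libraries numbered 2, and for Smoc2, Ascl2, Axin2 and Rgcc each lies with its colour and not with its shape, while the points of Npy1r and Krt20 overlap.

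Of the 25 stem cell genes tested beside Lgr5, 17 lay wholly higher and 3 wholly lower in the Lgr5-expressing libraries, where 12.2% of all genes tested lay wholly higher and 13.1% wholly lower. With the 2-fold size added, 15 were separated higher and 2 lower, against 5.59% and 7.45% of all genes. The median log2 difference of the list was 1.41 and that of all genes 0. The Lgr5-expressing libraries summed to 2122, 2619 and 2655 CPM over the list and the Lgr5-low libraries to 937, 1094 and 902 CPM. With both libraries numbered 2 left out the counts were again 15 and 2, against 9.17% and 9.59% of all genes. The list was drawn up with earlier results of these data known, so its direction is no independent evidence.

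Further members were receptors and surface proteins of the crypt base. Lrig1, a brake on epidermal growth factor receptors, had 87.1, 95.6 and 115 CPM in the Lgr5-expressing and 26.00, 42.5 and 27.3 CPM in the Lgr5-low libraries. Ephb3, an ephrin receptor that helps to sort cells along the crypt, had 69.9, 84.2 and 94.9 CPM and 12.6, 24.9 and 9.22 CPM. Rgmb, a BMP co-receptor, had 147, 127 and 137 CPM and 47.5, 55.02 and 51.6 CPM. In each of these genes the sides did not overlap. Slc12a2, a chloride cotransporter and the most abundant gene of the list, lay closer, with 240.2, 535 and 448 CPM against 132, 183 and 114 CPM and a log2 difference of 1.46.

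Not every gene of the list followed Lgr5. The water channel Aqp4 was separated the other way, with 54.8, 88.8 and 89.6 CPM in the Lgr5-expressing and 166, 218 and 253 CPM in the Lgr5-low libraries. So was the urea transporter Slc14a1, with 0.0191, 0.0372 and 0.0199 CPM and 0.218, 0.0907 and 9.06 CPM, of which only GFP-negative replicate 3 was above 1 CPM. Olfm4, which marks stem cells of the small intestine, had 2.59, 2.29 and 2.21 CPM and 2.94, 5.15 and 2.70 CPM, lower without overlap but under the 2-fold size. Prom1, a membrane glycoprotein, had 64.8, 244 and 182 CPM and 171, 144 and 108 CPM, which overlapped.

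Wnt targets and feedback genes were next in line. Of 19 tested, 14 lay wholly higher and 2 wholly lower in the Lgr5-expressing libraries, and 9 and 2 were separated, with a median log2 difference of 0.97. The shares over all genes were 12.2% and 13.1% for the former counts and 5.59% and 7.45% for the latter, so the 2 lower genes are near the share of all genes. Several of these genes also stand in the stem cell list. Axin2 (ENSMUSG00000000142.16, chr11:108920349-108950783 (plus strand)), which helps to destroy beta-catenin and is induced by it, had 13.7, 8.95 and 8.14 CPM and 1.48, 1.81 and 2.74 CPM, a log2 difference of 2.35, or 2.90 and 2.44 within the pairs numbered 1 and 2. The ubiquitin ligase Rnf43, which removes Wnt receptors, had 21.9, 28.9 and 29.9 CPM and 8.05, 11.9 and 13.3 CPM. The transcription factor Sp5 had 4.68, 2.69 and 4.01 CPM and 0.773, 0.570 and 0.375 CPM, a log2 difference of 2.70. Myc, a driver of growth, had 217, 215 and 183 CPM and 86.2, 98.95 and 73.3 CPM. Among these 4 genes the highest Lgr5-low library stayed under the lowest Lgr5-expressing one.

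Inhibitors that act on Wnt proteins at or outside the cell surface were separated in either direction. Apcdd1, which sits in the membrane, was separated higher at a low level, with 0.592, 0.633 and 0.538 CPM against 0, 0.0259 and 0 CPM, the latter made of 2 counts in 1 library. Notum, an enzyme that inactivates Wnt proteins, had 2.78, 3.04 and 1.45 CPM and 0.784, 0.311 and 0 CPM. Wif1, which binds Wnt proteins outside the cell, was separated lower, with 1.55, 1.94 and 0.478 CPM against 108, 21.3 and 51.7 CPM and a log2 difference of -5.42. Its lowest Lgr5-low library, GFP-negative replicate 1, stood above the highest Lgr5-expressing one by a factor of 10.9 (prior count 2). The other separated lower gene was Lef1, a transcription factor of Wnt signalling that T cells also use, with 0, 0.102 and 0.0997 CPM and 0.305, 0.402 and 13.9 CPM. Its one level above 1 CPM was in GFP-negative replicate 3, the library with the highest sum of immune cell genes.

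To set sequence beside these values, promoters of the stem cell and Wnt genes that were separated higher were read from RefSeq (GRCm38.p6), as the 250 bases before the start of the gene. Of 19 such genes 14 had an entry. The motif of the TCF and LEF factors, through which beta-catenin acts on genes, was searched as CTTTGAT on both strands (ATCAAAG on the other). It was found in 2 of the 14, Sp5 and Tnfrsf19, and in 3.72% of the promoters of 27025 genes. The window of Sp5, chr2:70474673-70474922 on the plus strand, holds 1 match that starts 104 bases before the gene, shown in capitals, and that of Axin2, chr11:108920099-108920348 on the plus strand, holds none. Both are printed since both genes were separated higher while their windows differ in the motif.
Sp5: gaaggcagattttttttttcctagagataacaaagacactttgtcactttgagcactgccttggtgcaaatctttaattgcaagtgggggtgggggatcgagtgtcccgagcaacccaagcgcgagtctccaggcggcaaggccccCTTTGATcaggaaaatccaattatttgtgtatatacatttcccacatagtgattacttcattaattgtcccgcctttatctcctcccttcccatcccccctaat
Axin2: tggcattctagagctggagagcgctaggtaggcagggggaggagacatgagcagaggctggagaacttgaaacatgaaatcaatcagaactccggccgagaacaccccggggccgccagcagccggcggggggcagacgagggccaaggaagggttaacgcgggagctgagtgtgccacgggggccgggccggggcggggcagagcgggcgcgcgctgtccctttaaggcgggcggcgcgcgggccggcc
A match is a run of letters and not a shown binding site, and its absence from this window says nothing of sites elsewhere.

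Genes of cell division had positive log2 differences throughout, and most of those of DNA replication did not overlap. Of 20 DNA replication genes 17 lay wholly higher and 11 were separated, and all 20 log2 differences were positive, with a median of 1.09. Among all genes 12.2% lay wholly higher and 5.59% were separated higher. The helicase subunit Mcm5 had 157, 181 and 211 CPM in the Lgr5-expressing and 74.4, 122 and 37.5 CPM in the Lgr5-low libraries, and the licensing factor Cdt1 128, 91.1 and 82.5 CPM and 40.5, 46.7 and 43.6 CPM. The most abundant member, Mcm6, nearly overlapped, with 192, 360.4 and 376 CPM against 128, 183 and 74.3 CPM. GFP-negative replicate 1 was the highest Lgr5-low library for all 20 genes, and 16 were separated without it, against 8.73% of all genes. GFP-negative replicate 3 was the lowest Lgr5-low library in sum, and without it 4 of the 20 were separated, against 5.51%.

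For mitosis, 6 of 20 genes lay wholly higher and 3 were separated, against the same 12.2% and 5.59% of all genes, with 20 positive log2 differences and a median of 0.98. Aurkb, a kinase of chromosome segregation, had 196, 143 and 183 CPM and 60.3, 102 and 62.7 CPM. The kinesin Kif20a had 47.4, 51.4 and 60.6 CPM and 18.6, 39.5 and 16.4 CPM, and Tpx2, a spindle assembly factor, 57.8, 67.1 and 78.4 CPM and 21.98, 55.2 and 27.1 CPM. Ube2c, a ubiquitin-conjugating enzyme of mitotic exit and the most abundant member, overlapped at 483, 319.9 and 441 CPM and 165, 339 and 195 CPM. The count depended on which library was left out. It was 16 without GFP-negative replicate 1, 11 without GFP-high replicate 1, 7 without GFP-high replicate 3, 2 without GFP-negative replicate 3 or the library labelled GFP-high replicate 2, and 1 without both libraries numbered 2. In those settings 5.51% to 9.17% of all genes were separated higher, so counts of 1 or 2 are near the share of all genes. With total-count scaling it was 12, and 17 for DNA replication.

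Of 12 ribosome biogenesis genes 6 lay wholly higher, against 12.2% of all genes, and 1 was separated, which is near the 5.59% of all genes. It was Polr1b of RNA polymerase I, with 16.4, 17.02 and 23.2 CPM against 11.7, 14.1 and 4.40 CPM. Npm1, a chaperone of the nucleolus, had 402, 450.1 and 493 CPM and 269, 313 and 195 CPM, which did not overlap but fell short of 2-fold. Without GFP-high replicate 1 the separated members were 5, against 8.99% of all genes, and without GFP-negative replicate 1 they were 3, against 8.73%. Without GFP-negative replicate 3 or the library labelled GFP-negative replicate 2 there was none, against 5.51% and 7.24%.

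**Figure D2:**
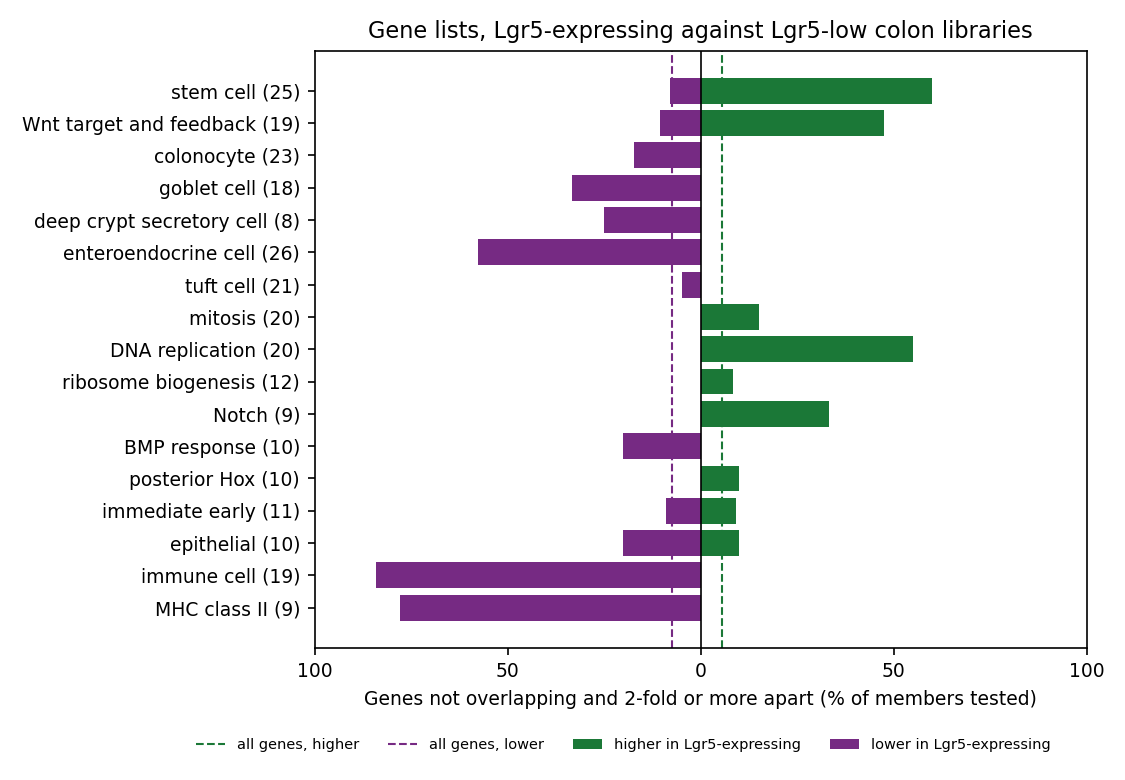
Share of the tested genes of each list (number in brackets, Lgr5 left out) that were separated higher (green, to the right) or lower (purple, to the left) in the Lgr5-expressing libraries, in percent; dashed lines give the same share over all genes. Only lists with at least 8 genes tested are drawn. The stem cell, DNA replication and Wnt bars reach farthest to the right. The bars of mitosis, Notch, Hox, epithelial, ribosome biogenesis and immediate early genes also pass the right dashed line, with 1 to 3 genes each. The immune cell, MHC class II and enteroendocrine bars reach farthest to the left.

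Most Notch genes overlapped, as did 74.7% of all genes. The target Hes1, which represses secretory fate, was separated higher, with 352, 263 and 226 CPM in the Lgr5-expressing and 119, 123 and 175 CPM in the Lgr5-low libraries. The receptor Notch1 had 10.7, 8.67 and 7.62 CPM and 3.26, 4.73 and 5.33 CPM, and the feedback gene Nrarp 0.878, 0.968 and 1.17 CPM and 0.425, 0.389 and 0.472 CPM. These 3 of the 9 tested were separated, against 5.59% of all genes, and the other 6 overlapped, among them the ligand Dll1 at 8.19, 7.30 and 16.6 CPM and 14.4, 14.9 and 13.5 CPM. The median of the list was 0.22. Hes1 and Notch1 had log2 differences of 1.01 and 1.03, just past the 2-fold size. Without GFP-high replicate 1 or the library labelled GFP-high replicate 2 only 1 member was separated, near the 8.99% and 7.29% of all genes. The count was 2 without GFP-negative replicate 1 or both libraries numbered 2, against 8.73% and 9.17%. It was 3 without the library labelled GFP-negative replicate 2, against 7.24%. Without GFP-high replicate 3 or GFP-negative replicate 3 it was 4, against 6.57% and 5.51%.

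Most BMP response genes overlapped or differed by less than 2-fold. Of the 10 tested 6 overlapped, where 74.7% of all genes did. Id1 and Id3, inhibitors of basic helix-loop-helix factors that BMP signals induce, were the 2 separated of 10 tested, both lower in the Lgr5-expressing libraries, and 4 lay wholly lower, where 7.45% and 13.1% of all genes were. Id1 had 106, 115 and 116 CPM in the Lgr5-expressing and 254, 237 and 337 CPM in the Lgr5-low libraries, a log2 difference of -1.28. Id3 had 68.4, 102 and 60.7 CPM and 232, 148 and 273 CPM, and every Lgr5-low library was above every Lgr5-expressing one. Bambi, a decoy receptor that dampens the pathway, overlapped at 46.4, 22.4 and 35.8 CPM and 23.1, 27.8 and 19.4 CPM. The members separated lower were 3 without GFP-high replicate 3, against 11.6% of all genes, and 4 without GFP-negative replicate 1, against 11.1%.

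The NADPH oxidase that the study's title names was separated, and the receptor it names was not. Nox1 (ENSMUSG00000031257.15, chrX:134086421-134221956 (minus strand)), the catalytic subunit of a superoxide-producing oxidase, had 49.97, 74.3 and 117 CPM in the Lgr5-expressing and 16.9, 34.2 and 9.82 CPM in the Lgr5-low libraries. Its log2 difference was 2.09. It was 0.55 within the pair numbered 1 and 2.79 within the pair numbered 2. Noxa1, the activator that Nox1 needs, had 311, 309.7 and 287 CPM and 157, 148 and 75.9 CPM, a log2 difference of 1.32 that came to 0.99 without GFP-negative replicate 3. The organiser Noxo1, the membrane partner Cyba and the small GTPase Rac1 lay wholly lower by less than 2-fold. With Npy1r, 6 genes of this list were tested. Of these 2 were separated higher, against 5.59% of all genes, and 3 lay wholly lower, against 13.1%. Rac1 had 445, 532 and 629.8 CPM and 736, 726 and 745 CPM. With total-count scaling the log2 difference of Noxo1 went from -0.28 to 0.00, that of Cyba from -0.58 to -0.31 and that of Rac1 from -0.47 to -0.20.

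Npy1r (ENSMUSG00000036437.7, chr8:66697192-66706792 (plus strand)), a receptor that binds peptide YY as well as neuropeptide Y, had 10.3, 18.02 and 16.9 CPM in the Lgr5-expressing and 19.8, 13.3 and 5.13 CPM in the Lgr5-low libraries. The library labelled GFP-high replicate 2, which had the lowest Lgr5 of the 6, had the highest Npy1r. The log2 difference of 0.41 turned to -0.15 without GFP-negative replicate 3, and it was -0.37 and -0.23 within the pairs numbered 1 and 2. Peptide YY itself, made by enteroendocrine cells, had 173, 59.7 and 31.2 CPM and 486, 263 and 132 CPM, which overlapped.

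Of the 10 posterior Hox genes tested, homeobox genes that pattern the hindgut, 8 overlapped, which is near the 74.7% of all genes that did. Hoxa11 was separated higher, with 3.14, 2.97 and 3.33 CPM against 1.97, 1.54 and 0.633 CPM. Hoxa13 lay wholly lower, with 11.9, 13.5 and 14.3 CPM against 21.5, 25.9 and 27.3 CPM. Hoxb13, the most abundant, had 396, 188 and 201 CPM and 317, 547 and 548 CPM. Without GFP-negative replicate 3 Hoxa11 was no longer separated.

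Among the lists of mature epithelial cells, the largest share of genes separated lower was that of enteroendocrine cells, the hormone-making cells of the gut. Of 26 such genes 15 were separated lower and none higher, against 7.45% and 5.59% of all genes, with a median log2 difference of -2.41. The granin Chga had 28.5, 82.1 and 18.7 CPM in the Lgr5-expressing and 4311, 1063 and 1129.8 CPM in the Lgr5-low libraries, a log2 difference of -5.62, or -5.22 and -7.84 within the pairs numbered 1 and 2. Tph1, the enzyme that starts serotonin synthesis, had 14.2, 34.8 and 4.39 CPM and 2645, 446 and 1341 CPM. Neurotensin (Nts) had 0.305, 0.791 and 1.40 CPM and 89.4, 112 and 95.2 CPM, and its 3 Lgr5-low libraries were within a narrow range of each other. Somatostatin (Sst) was separated too, with 0, 11.4 and 0.259 CPM and 133, 18.5 and 162 CPM. The library labelled GFP-high replicate 2 was the highest Lgr5-low library for 24 of the 26 genes. The count was 15 to 19 when any 1 library was left out and 16 without both libraries numbered 2. Of all genes 8.08% to 11.6% and 9.59% were separated lower in those settings.

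Further members of that list are given after their values were seen. Glucagon (Gcg), whose gene also encodes glucagon-like peptides, overlapped, with 399, 90.9 and 38.1 CPM in the Lgr5-expressing and 619, 106 and 1.82 CPM in the Lgr5-low libraries. Insl5, a relaxin-family hormone, had 23.6, 3.95 and 2.09 CPM and 52.8, 13.7 and 0 CPM. In both genes GFP-high replicate 1 was above GFP-negative replicates 1 and 3. Neurog3, the factor that commits cells to the enteroendocrine fate, had 5.81, 2.56 and 3.75 CPM and 2.75, 1.44 and 0 CPM. Neurod1, which acts after it, had 0.420, 1.86 and 1.12 CPM and 49.4, 8.58 and 22.01 CPM. Neurod1 was separated lower, with a log2 difference of -4.43, while Neurog3 overlapped, with one of 3.13 in which the library without a count is held up by the prior count. With total-count scaling 1 member was separated higher and 14 lower.

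Goblet cells secrete mucus, and 6 of 18 of their genes were separated lower, where 7.45% of all genes were, and none higher, with a median of -0.66. Fcgbp, a protein of the mucus gel, had 57.1, 188 and 205 CPM in the Lgr5-expressing and 1617, 1579.8 and 2053 CPM in the Lgr5-low libraries. The lectin Zg16 had 44.1, 746 and 177 CPM and 5512, 16996 and 3021 CPM, and the secreted protease Clca1 14.5, 1110.5 and 1185 CPM and 18104, 6653 and 8197 CPM. All 3 genes varied widely within the Lgr5-expressing side, where GFP-high replicate 1 was lowest. Fer1l6, a ferlin, had the most even values, with 1.92, 2.52 and 2.30 CPM against 17.6, 19.6 and 22.3 CPM and a log2 difference of -3.13. The gel-forming mucin Muc2 overlapped, at 2341, 1021 and 1631 CPM and 1575, 3347 and 1838 CPM, and so did Atoh1, the factor that sets secretory fate, at 241, 119.6 and 285 CPM and 356, 328 and 227 CPM.

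Deep crypt secretory cells lie between stem cells at the base of colon crypts. Of their 8 genes Mptx1 and Best2 were separated lower, where 7.45% of all genes were, and the other 6 overlapped, as 74.7% of all genes did. Best2, a bicarbonate channel, had 15.7, 22.1 and 17.8 CPM and 87.6, 161 and 80.2 CPM. Kit, a receptor tyrosine kinase of these cells, was nearly level, at 32.3, 45.2 and 43.98 CPM and 40.6, 44.7 and 43.8 CPM. Reg4, their best-known marker, had 1035, 806 and 17707 CPM and 12012, 5259 and 4669.9 CPM, and the highest of all 6 was the Lgr5-expressing library labelled GFP-negative replicate 2. With both libraries numbered 2, or only the one labelled GFP-negative, left out, 3 of the 8 were separated lower. The shares of all genes there were 9.59% and 8.64%.

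For colonocytes, the absorptive cells of the colon, the count moved with the library left out. Car1 (ENSMUSG00000027556.16, chr3:14766216-14808368 (minus strand)) had 466, 6856 and 3038 CPM in the Lgr5-expressing and 21057, 10064 and 24674 CPM in the Lgr5-low libraries, a log2 difference of -3.02. Krt20 (ENSMUSG00000035775.3, chr11:99428403-99438150 (minus strand)), a keratin of mature surface cells, had 10.9, 412 and 51.2 CPM and 655, 251 and 488 CPM. The Krt20 level of GFP-high replicate 3 lay inside the Lgr5-low range, so the sides overlapped. Of 23 genes tested 4 were separated lower (Car1, Lypd8, Guca2a and Scnn1b) and none higher, against 7.45% of all genes lower, with a median of -2.23. GFP-high replicate 3 was the highest Lgr5-expressing library for 18 of them. Without it 16 of the 23 were separated lower, against 11.6% of all genes in that setting. Without GFP-negative replicate 1 there were 8, against 11.1%, and without GFP-negative replicate 3 there were 6, against 8.78%. Leaving out GFP-high replicate 1 gave 3 separated lower, against 8.08%, and 1 separated higher, against 8.99%. The median of the list was then -0.996. With either or both libraries numbered 2 left out the lower count was again 4, against 8.52% to 9.59%. Aqp8, a water channel of the surface, was chosen after its values were seen as an example of a gene highest in GFP-high replicate 3. It had 0.611, 239.6 and 4.07 CPM and 55.4, 47.6 and 105 CPM.

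GFP-high replicate 3 also stood out in tuft cells, the chemosensory cells of the epithelium. It was the highest Lgr5-expressing library for 19 of 21 tuft cell genes, and the library labelled GFP-high replicate 2 was the highest Lgr5-low one for 20. Both are labelled GFP-high. The channel Trpm5 had 15.7, 87.2 and 15.2 CPM and 53.7, 18.5 and 15.7 CPM, and the kinase Dclk1 23.4, 94.6 and 18.3 CPM and 63.5, 21.6 and 33.1 CPM. Only Alox5ap, which serves leukotriene synthesis and is also made by blood cells, was separated lower, with 3.81, 2.95 and 1.14 CPM and 29.04, 8.40 and 28.5 CPM, and 1 of 21 is no more than the 7.45% of all genes. Without GFP-high replicate 3 the count was 8, against 11.6% of all genes, and without GFP-negative replicate 1 it was 2, against 11.1%.

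**Figure D3:**
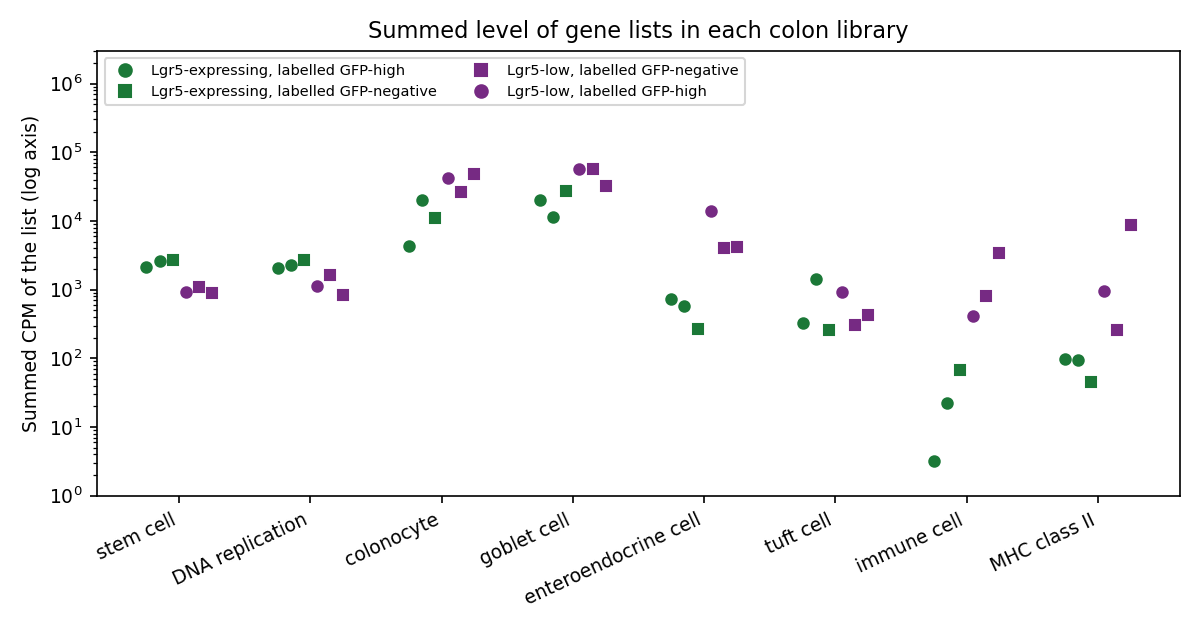
Summed CPM (log axis) of the genes of 8 lists in each colon library, 1 point per library, with green for Lgr5-expressing, purple for Lgr5-low, circles for labelled GFP-high and squares for labelled GFP-negative. The stem cell sums are 2122 to 2655 CPM in green and 902 to 1094 CPM in purple, the tuft cell sums overlap, and the immune cell sums run from 3.19 CPM in GFP-high replicate 1 to 3415 CPM in GFP-negative replicate 3.

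Markers of epithelium as a whole were split, with a median log2 difference of -0.06 that turned to 0.21 with total-count scaling. Krt19, a keratin, had 1740.3, 2321 and 2709 CPM in the Lgr5-expressing and 5577, 6180.2 and 4208 CPM in the Lgr5-low libraries, and the lectin Lgals4 3210.4, 2703 and 3409.8 CPM and 6879.9, 8023 and 4763 CPM, both separated lower. Neither was separated with total-count scaling. Cdx2, the factor that gives the gut its identity, was separated higher, with 233, 97.3 and 159 CPM and 42.4, 41.9 and 72.95 CPM. Of the immediate early genes, which respond within minutes to handling and growth signals, 1 of 11 was separated each way, which is near the shares of all genes (5.59% higher and 7.45% lower). Jun was separated higher at 98.2, 102 and 65.4 CPM against 24.2, 27.9 and 29.1 CPM. Fos was separated lower at 116, 107 and 45.4 CPM against 186, 124 and 281 CPM, nearly touching, and it was no longer separated without GFP-negative replicate 3, without the library labelled GFP-negative replicate 2, without both libraries numbered 2, or with total-count scaling.

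Over all genes, 1153 (5.59%) were separated higher and 1535 (7.45%) lower in the Lgr5-expressing libraries, so that 42.9% of the separated genes were higher. With total-count scaling, which moves the median log2 difference of all genes by 0.26, the counts were 2005 and 1180 and the share was 63.0%. Large differences were mostly on the lower side, with 420 genes at a log2 difference of -5 or beyond and 6 at 5 or beyond. Without GFP-high replicate 1 the higher count was 1852, without GFP-negative replicate 1 it was 1800, and without GFP-high replicate 3 the lower count was 2383. With both libraries numbered 2 left out, 1889 were separated higher and 1976 lower, and 1052 and 1498 of these were among the genes separated with all 6 libraries.

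The 12 separated genes with the widest gap on the higher side, among those with a mean of 5 CPM or more there, held Smoc2 and 11 others. Scn2b, a beta subunit of sodium channels, had 10.9, 10.9 and 6.37 CPM in the Lgr5-expressing and 0.566, 0.259 and 0.665 CPM in the Lgr5-low libraries, and a gap of 9.32-fold (prior count 2). Rnase1, a secreted ribonuclease, had 9.98, 16.5 and 13.3 CPM and 1.18, 0.933 and 1.31 CPM, and Aqp1, a water channel, 86.2, 71.6 and 79.8 CPM and 6.90, 11.8 and 14.6 CPM. Slc27a2, an enzyme that activates very long fatty acids, had the most even values, with 37.5, 50.3 and 53.3 CPM and 8.27, 6.96 and 6.97 CPM. For these 4 genes every Lgr5-low library stood at least several fold below every Lgr5-expressing one.

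Angpt2, a ligand of the Tie2 receptor of vessels, had 13.9, 21.6 and 21.5 CPM and 3.09, 2.26 and 0.826 CPM. The nuclear receptor Nr2e3, best known from photoreceptors, had 26.4, 63.8 and 41.9 CPM and 5.33, 6.07 and 1.20 CPM. Cbx6, a Polycomb protein, had 15.2, 23.2 and 15.6 CPM and 3.61, 2.31 and 3.05 CPM. In Rdh1, a retinol dehydrogenase, Macroh2a2, a histone variant, and Slc1a2, a glutamate transporter, GFP-negative replicate 3 stood far below the other Lgr5-low libraries. Rdh1 had 10.2, 14.9 and 18.2 CPM against 1.11, 1.53 and 0.0214 CPM, and Macroh2a2 6.29, 11.4 and 6.88 CPM against 1.05, 1.40 and 0 CPM. The remaining gene was Syne4, which links the nucleus to kinesin, with 10.5, 11.5 and 3.68 CPM against 0.283, 0.881 and 0.600 CPM.

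All 12 genes with the widest gap on the lower side are expressed in blood cells. Lyz2, the lysozyme of macrophages and neutrophils, had 0.0859, 0.717 and 0.0797 CPM in the Lgr5-expressing and 133, 474 and 540.4 CPM in the Lgr5-low libraries. Spi1, the master factor of myeloid cells, had 0.00954, 0.0465 and 0.0199 CPM and 8.83, 7.62 and 107 CPM. The complement gene C1qb had 0.0382, 0.0931 and 0.0199 CPM and 15.4, 66.2 and 46.6 CPM, and GFP-negative replicate 1 was highest. The neutrophil gene S100a9 had no count in the 3 Lgr5-expressing libraries and 4.77, 9.99 and 15.1 CPM in the Lgr5-low ones. Cyth4, Clec4a3, Rhoh, Myo1f and Samsn1 were likewise at 0 on the Lgr5-expressing side, and Pilra had 1 count there. Tyrobp and Fcer1g, adaptors of immune receptors, completed the 12. Of the 19 immune cell genes, Ptprc, Itgam and C1qa overlapped between the sides. C1qa had 0.515, 0.726 and 63.5 CPM and 22.7, 18.7 and 10.7 CPM, with its highest level in the library labelled GFP-negative replicate 2.

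**Figure D4:**
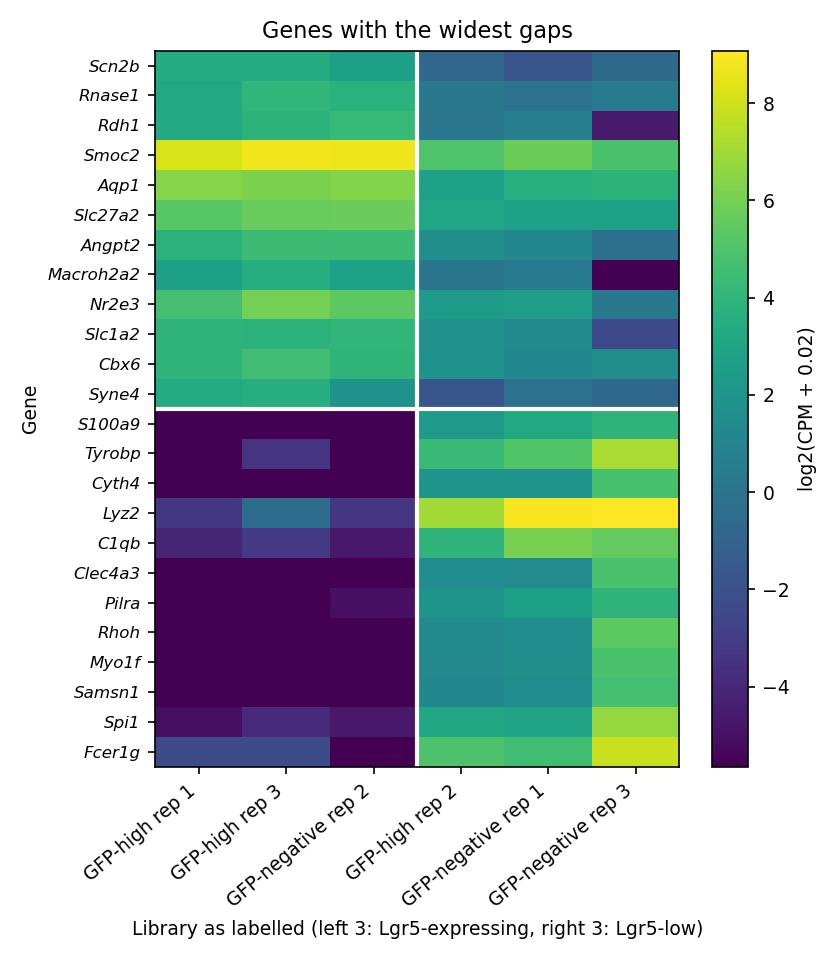
Heat map of log2(CPM + 0.02) for the 12 genes with the widest gap on each side (rows) in the 6 colon libraries (columns), Lgr5-expressing on the left of the white line and Lgr5-low on the right. The upper 12 genes are brighter on the left and the lower 12 are brighter on the right, with the brightest Lgr5-low column for most lower genes in GFP-negative replicate 3.

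Genes of MHC class II, which present antigen, were lower along with the immune cell genes. Of 9 tested 7 were separated lower, where 7.45% of all genes were, and none higher. H2-Ab1 had 9.53, 18.3 and 8.25 CPM in the Lgr5-expressing and 255, 56.7 and 1563 CPM in the Lgr5-low libraries. The invariant chain Cd74 had 53.97, 53.1 and 21.6 CPM and 407, 126 and 4651 CPM, with GFP-negative replicate 3 far above the rest. Without that library 7 of the 9 were again separated lower, against 8.78% of all genes. Markers of stromal and endothelial cells were scarce, with stromal cell genes summing to 8.29 CPM at most in the Lgr5-expressing and 59.6 CPM at most in the Lgr5-low libraries. The highest endothelial sums were 15.95 CPM and 15.73 CPM. Red blood cell genes summed to 105 CPM in GFP-negative replicate 3 and to 15.4 CPM at most in any other colon library.

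How the libraries numbered 2 stood was then read from the rest of the genes. In GFP-high replicates 1 and 3 against GFP-negative replicates 1 and 3, whose labels and Lgr5 levels go together, 3865 genes differed without overlap and by 2-fold or more. In the pair numbered 2, labelled GFP-high minus labelled GFP-negative, 3164 of these (81.9%) had the opposite sign, against 68.8% of all 20609 genes. Of the 1889 genes that were higher in GFP-high replicates 1 and 3, 73.6% were lower in the library labelled GFP-high replicate 2, with a median log2 difference of 1.88 in the former and -0.68 in the latter. Of the 1976 genes that were lower, 89.8% were the other way round, with medians of -2.90 and 1.90. Genes are not independent of each other, and a cause for the opposite signs was not tested.

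**Figure D5:**
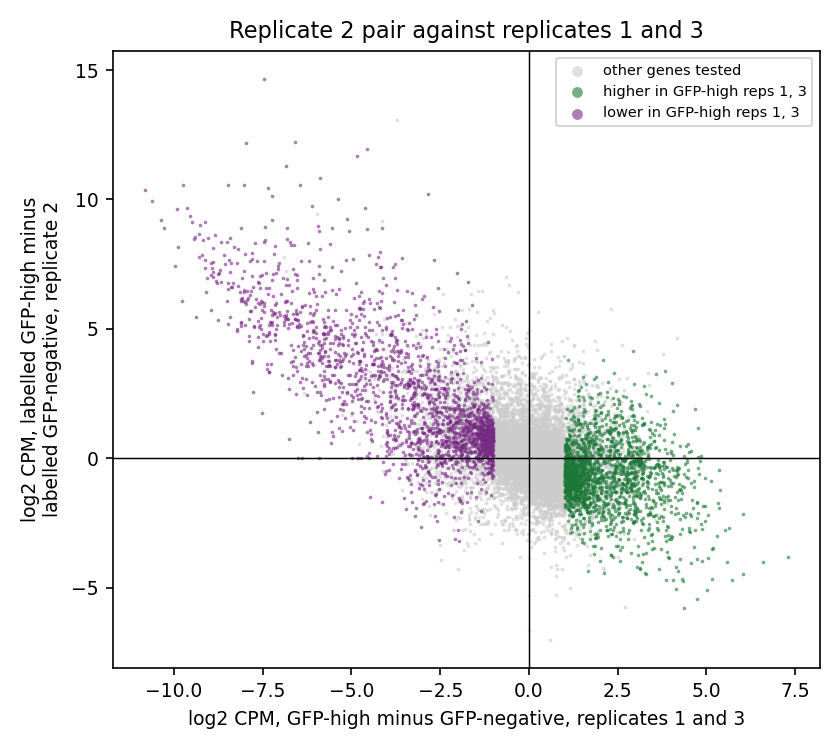
Log2 difference in CPM (prior count 2) of labelled GFP-high minus labelled GFP-negative in the pair numbered 2 (vertical axis) against the same difference in replicates 1 and 3 (horizontal axis), 1 point per gene; green and purple mark the genes that differ in replicates 1 and 3 without overlap and by 2-fold or more. Of the purple genes 89.8% lie above the horizontal line and of the green genes 73.6% lie below it.

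With the libraries kept as labelled, the question of what differs between GFP-high and GFP-negative colon cells gave no called gene. In edgeR's quasi-likelihood test on all 9 libraries, 0 of 20610 genes (0.0%) had an adjusted p under 0.05, and 226 had an unadjusted p under 0.05. By limma-voom there were 0 calls (226 before adjustment) and by DESeq2 there was 1 (406 before adjustment). Smoc2 had a labelled log2 fold change of 0.62 ± 1.08 (SE), Ascl2 0.78 ± 0.95 and Axin2 0.93 ± 0.78, each with an adjusted p of 1 by edgeR. The SE was derived from the fold change and edgeR's test statistic. Each fold change was smaller than that gene's log2 difference between the sides set by Lgr5. The latter is a difference of mean log2 CPM and not a fitted value, so the measures are unlike.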

How the data were processed

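The members and gene lists were chosen with earlier results of these data known. The submitters' processing notes name genome build mm10 and the tools STAR, Subread, featureCounts and edgeR. Not given in the sources used here are tool versions, strandedness, the treatment of multi-mapping reads and the annotation used for counting, so near-identical genes (Hspa1a and Hspa1b, for example) and overlapping genes are uncertain. Raw read counts of 78239 genes in the 9 libraries were deposited, per the file headers. Log2 TPM, log2 RPKM and log2 CPM values, also deposited, were not used. The authors also deposited each library's total and its TMM factor, a ratio.

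CPM were computed from the deposited counts, totals and factors. Log2 values carry a prior count of 2, in proportion to library size. The 20610 genes that passed edgeR's filterByExpr by labelled group were tested, and Lgr5 was left out of the description of the remaining 20609. For the labelled contrast edgeR 4.0.16 was run under R 4.3.3 (glmQLFit and glmQLFTest, TMM, 1 fit of all 9 libraries, two-sided, Benjamini-Hochberg over all genes tested), with DESeq2 1.42.0 and limma 3.58.1 (voom) as alternatives. Fits and the separation rule were tested on simulated counts.

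Genes named were those of the 6 markers Lgr5, Smoc2, Ascl2, Axin2, Car1 and Krt20, the 2 genes of the series title, the 12 separated genes of widest gap on each side (mean of at least 5 CPM on the high side, no model-name symbols), and from each of 22 lists the most abundant member and up to 4 separated members of widest gap. Other list members were named after their values were seen. Some genes that this rule names are not reported here. The lists held 310 different genes, of which 309 were in the table. Alternatives were other scalings, filters, sizes and prior counts, and each colon library left out. Leaving out both libraries numbered 2 was planned for the labelled contrast and added after seeing the data for the separated genes, as were the list counts without each library and under other scalings. Depth was 86621513 to 106673547 counts per library.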

Additional observations from a re-analysis of the deposited data

How the results depend on the processing

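The labelled contrast called 0 genes in edgeR with other size factors, total counts, no filter, the 6 colon libraries only, the library name tag as a block and without each colon library in turn (0 to 0). Deviations from the labelled group means correlated at -0.10, -0.64 and -0.25 between colon libraries of the same number. Both libraries numbered 2 go against their label in Lgr5, so these values cannot decide whether the numbers pair the samples. The fit with a replicate block called 0 genes (123 at an unadjusted p under 0.05, against 226 without the block). DESeq2 called 1 gene. Without both colon libraries numbered 2, edgeR called 0 of 21770 genes (1582 at an unadjusted p under 0.05, lowest adjusted p 0.194), DESeq2 701 (119 higher and 582 lower in GFP-high) and limma-voom 2, and since Lgr5 was the reason to leave them out this is no separate test.

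The counts separated higher and lower (1153 and 1535) moved to 2005 higher with total counts, to 677 and 998 with a mean of at least 1 CPM (fewer genes tested, 13604), to 1908 higher at 1.5-fold, to 458 higher at 4-fold (1090 lower) and to 1889 higher without both libraries numbered 2. Without 1 library in turn they ran from 1136 to 1852 higher and from 1665 to 2383 lower. The share of genes with the opposite sign in the pair numbered 2 (81.9%) was 81.9% with DESeq2 size factors, 83.2% with total counts, 92.9% with a mean of at least 1 CPM and 83.5% at 4-fold. The same share over all genes (68.8%) was computed in the main setting only. Whether the other values stand farther from that of all genes can therefore not be read from them. For the counts of separated genes, the size and the filter are part of the rule, and leaving out a library leaves fewer values that could overlap. Beyond that, the cause of these shifts was not tested. Of 89 named genes, the 80 that did not overlap kept their sign in the 9 alternatives run for each, and Npy1r, which overlapped, turned in at least 1. List medians of the tuft cell and immediate early genes moved from -0.30 and -0.29 to -0.03 and -0.02 with total counts, and that of the epithelial genes from -0.06 to 0.21. Of 279 list genes tested, 20 changed sign between the scalings.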

Other observations

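Among genes chosen after their values were seen, Retnlb, a goblet cell product that acts on bacteria, followed neither Lgr5 nor the GFP label. It had 172, 227 and 2425 CPM in the Lgr5-expressing libraries (GFP-high replicates 1 and 3 and the library labelled GFP-negative replicate 2). In the Lgr5-low libraries it had 3032, 145 and 1993 CPM (the library labelled GFP-high replicate 2 and GFP-negative replicates 1 and 3). Its 3 high libraries are both of those numbered 2 and GFP-negative replicate 3, whose library name tags begin alike. Reg4 was also highest in both libraries numbered 2, at 17707 and 12012 CPM, against 806 to 5259 CPM in the other 4.

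GFP-high replicate 1 had the fewest transcripts of mature colonocytes in the 6 libraries, with a summed 4354 CPM against 11214 to 48118 CPM in the other 5, and also the fewest immune cell transcripts and the fewest genes detected (20715). Gcg (399 CPM) and Pyy (173 CPM) were nonetheless higher there than in the other Lgr5-expressing libraries.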
